A study of Mus musculus with 46 samples.

Results

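The genes described here are 36 interferon-stimulated genes, chosen by name from the 55359 genes of the count table, in which each of the 36 names stood once. They were followed across 46 libraries of adult mouse heart RNA. Type I interferons bind the receptor made of Ifnar1 and Ifnar2, and the kinases Jak1 and Tyk2 then activate Stat2, which joins Irf9 in a complex that binds the interferon-stimulated response element before many antiviral genes. Interferon itself is induced by sensors of nucleic acid, among them cGas (gene symbol Cgas), an enzyme that is switched on by cytosolic DNA and makes the messenger that activates Sting1. Lmna encodes lamins A and C, proteins of the nuclear lamina. The groups ask how these genes change after Lmna deletion in cardiomyocytes, and whether that change depends on cGas.

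All mice carried 1 copy of Myh6MCM (labelled Tg/0), a Cre recombinase driven by a cardiomyocyte promoter and active only on tamoxifen, so other cell types of these hearts were not the target of the deletion. Tamoxifen was given at 6 to 8 weeks of age, as 100 µL of 4 mg/mL into the abdomen on 4 days in a row. In the time course, made with the NEBNext poly(A) kit, Lmna F/F hearts (both alleles floxed) were set against Lmna +/+ hearts with the same Cre and tamoxifen, here called wild type: 4 F/F and 5 wild type libraries came from 1 week after tamoxifen, 2 and 3 from 11 days, 5 and 7 from 2 weeks. In the cGas cross, made with the QuantSeq kit that counts 3′ ends, F/F hearts of 2 weeks were set against F/+ hearts (1 floxed allele): 6 F/F and 6 F/+ libraries with cGas +/+, and 4 F/F and 4 F/+ libraries with cGas null/null. All 4 libraries of F/+ cGas null were from males, while the other 3 groups of the cross held both sexes.

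Total counts were 8477358 to 25856892 per NEBNext and 22099181 to 33993289 per QuantSeq library, of which the 36 genes took 0.0271 to 0.209% and 0.0200 to 0.0865%. Mitochondrially encoded genes took 4.04 to 31.7% of the counts in NEBNext and 45.9 to 58.9% in QuantSeq libraries. The shares of the 36 genes are therefore not comparable between the kits. The 6 cardiomyocyte markers, Myh6 among them, had counts in every library. In normalised CPM (counts scaled to the library size), Lmna at 1 week lay between 27.0 and 36.9 in the F/F arm and between 45.0 and 67.7 in the wild type arm, without overlap. At 11 days the F/F libraries stood at 58.3 and 58.4 and the wild type libraries at 52.1, 106 and 118, so Lmna did not separate the arms, and these F/F libraries are called "labelled F/F" below. At 2 weeks Lmna was 42.2, 108, 108, 82.8 and 84.9 in F/F replicates 1 to 5 and 105 to 125 in wild type, with F/F replicates 2 and 3 inside the wild type range, and in the cross it overlapped between F/F and F/+. The names of the groups at 2 weeks and in the cross therefore rest on the labels. Cgas transcripts were 0.609 to 1.198 normalised CPM in F/F cGas null and 1.97 to 3.79 in F/F cGas +/+ hearts, without overlap. In tissue RNA of this kind, fewer cells of a type and less RNA per cell cannot be told apart.

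Matches to the core of the response element were sought in the promoters of these genes, by sequence alone. RefSeq (GRCm38.p6, a build other than the mm39 to which the reads were aligned) gave a promoter window of 250 bases before to 50 after the start site for 27 of the 36 genes. A core of 2 GAAA boxes with a gap of 2 bases, on either strand, lay in 13 of the 27 genes (48.1%). Some genes have more than 1 window. Counted by window, the core lay in 14 of their 32, against 3.44% of all 32851 windows of that length. At least 3 such boxes in a row lay in 3 of 27 genes (11.1%) and 3 of 32 windows, against 0.116% of all windows: Isg15, Oas1a and Bst2. These matches overlap those with 2 boxes by construction. The core of the gamma-activated site, TTC, a gap of 3 bases, GAA, lay in 6 of 27 genes (22.2%) and 6 of 32 windows, against 8.3% of all windows. The stretches below, all before the start site, show the 3 genes with at least 3 boxes in a row (more than 3 in Isg15). Further stretches show 3 of the 4 IFIT genes of chromosome 19, and Rsad2 and Trim30a, which differed in their response. Each is written 5′ to 3′ on the gene's strand, with the boxes and the gaps between them in capitals, where a core on the opposite strand reads as TTTC.

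Isg15 (chr4:156200855-156200916, minus strand): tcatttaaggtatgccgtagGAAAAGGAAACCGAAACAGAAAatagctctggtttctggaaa
Oas1a (chr5:120907526-120907565, minus strand): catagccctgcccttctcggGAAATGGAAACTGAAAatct
Bst2 (chr8:71537567-71537622, minus strand): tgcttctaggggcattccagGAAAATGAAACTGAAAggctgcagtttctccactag
Ifit1 (chr19:34640765-34640833, plus strand): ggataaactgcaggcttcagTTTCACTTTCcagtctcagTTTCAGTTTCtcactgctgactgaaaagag
Ifit3 (chr19:34583353-34583436, plus strand): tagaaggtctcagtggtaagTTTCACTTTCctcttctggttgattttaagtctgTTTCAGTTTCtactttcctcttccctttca
Ifit3b (chr19:34607749-34607832, plus strand): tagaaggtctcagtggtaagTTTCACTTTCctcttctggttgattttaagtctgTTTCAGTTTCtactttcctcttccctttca
Rsad2 (chr12:26456543-26456592, minus strand): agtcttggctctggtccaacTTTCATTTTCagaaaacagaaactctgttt
Trim30a (chr7:104465200-104465249, minus strand): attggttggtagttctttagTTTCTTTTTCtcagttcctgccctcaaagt

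Ifit3 and Ifit3b are near-identical copies whose start sites lie 24428 bases apart, and the 84 bases shown are the same in both. Their reads may have been shared between them, so their values are not independent. Of the 36 genes, 12 overlap an exon of another gene and 8 do so on the opposite strand, including Parp9 with Dtx3l, Irf7 with Phrf1 and Dhx58 with Dhx58os. Reads of such pairs may be mixed, since the strand setting of the counting was not given in the sources used here.

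At 1 week none of the 36 genes passed the test in edgeR's quasi-likelihood fit (0 of 36 called, against 0.0256% of all genes tested, with an adjusted p of 0.428 or more for each). DESeq2 and limma called 0 as well, and 2 genes, Stat2 and Oas2, had an unadjusted p under 0.05 (9.85% of all genes). The median log2 fold change was 0.10, against -0.0048 over all genes, and 22 of the 36 values were positive (49.3% of all genes), within a range of -0.39 to 1.32. With libraries scaled by their totals alone 32 values were positive, with medians of 0.26 for the 36 genes and 0.15 over all genes. With a library left out the median of the 36 ran from -0.0047 (without F/F replicate 2) to 0.21 (without wild type replicate 5), and it was 0.20 without wild type replicate 1 or F/F replicate 3, 0.03 without wild type replicate 2 and 0.04 without wild type replicate 3. Isg15, a ubiquitin-like protein that is attached to other proteins, was 8.36, 9.24, 7.38 and 8.35 normalised CPM in F/F and 8.68, 3.39, 2.87, 7.59 and 10.8 in wild type hearts. All 4 F/F values lay inside the wild type range. Stat2, part of the complex that binds the response element, was 10.7, 13.6, 13.3 and 8.42 against 11.3, 5.35, 6.84, 7.53 and 8.14. Its log2 fold change was 0.55 (95% interval 0.11 to 1.00, edgeR adjusted p = 0.428), and the groups overlapped. Oas2 and Parp14 were the 2 genes whose F/F libraries all lay above the wild type libraries (the position of 1.7% of all genes).

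At 11 days 0 of 36 genes passed (edgeR, 0% of all genes), also with DESeq2 and limma, and 6 had an unadjusted p under 0.05 (8.33% of all genes). With 2 labelled F/F and 3 wild type libraries, 26 of 36 values were negative (57.3% of all genes) and the median was -0.20 (-0.07 over all genes). Without wild type replicate 3 the median was -0.05. In 9 genes both labelled F/F libraries lay below all 3 wild type libraries, a position that 11% of all genes held: Ifit1, Ddx58, Dhx58, Eif2ak2, Parp9, Dtx3l, Rsad2, Trim30a and Rtp4. Trim30a, a member of the TRIM family, was 2.3 and 1.40 normalised CPM against 2.50, 2.98 and 4.72. In 3 genes the order was the opposite (7.04% of all genes): Mx1, Mx2 and Isg20. Mx2, a dynamin-like GTPase that blocks viruses, was 1.07 and 1.34 against 0.152, 0.510 and 0.421, 1.69 on the log2 scale (95% interval 0.60 to 2.79, edgeR adjusted p = 0.421). Each time point was sequenced in pools of its own, so differences between times cannot be told apart from differences between pools.

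At 2 weeks 32 of the 36 genes were higher in F/F hearts and none was lower (edgeR adjusted p under 0.05; 16.2% of all genes were called higher and 13% lower). All 36 log2 fold changes were above 0 (52.7% of all genes), from 0.35 to 4.06, with a median of 1.19, a fold of 2.28, against 0.04 over all genes. Every gene of the ISG15, IFIT, OAS and MX groups, of the transcription factors, of the RNA sensors and of the Parp9 group rose. The 4 genes that were not called were Rsad2, Cmpk2, Isg20 and Ifi35. With libraries scaled by their totals alone, the median over all genes moved to 0.29 and the calls over all genes changed from 2537 higher with 2025 lower to 4373 higher with 822 lower. The 36 genes then had a median of 1.47, with 35 called. On the deposited TPM in limma all genes were called as 5253 higher and 705 lower with a median of 0.21, and the 36 genes had a median of 1.16 with 36 called.

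**Figure D1:**
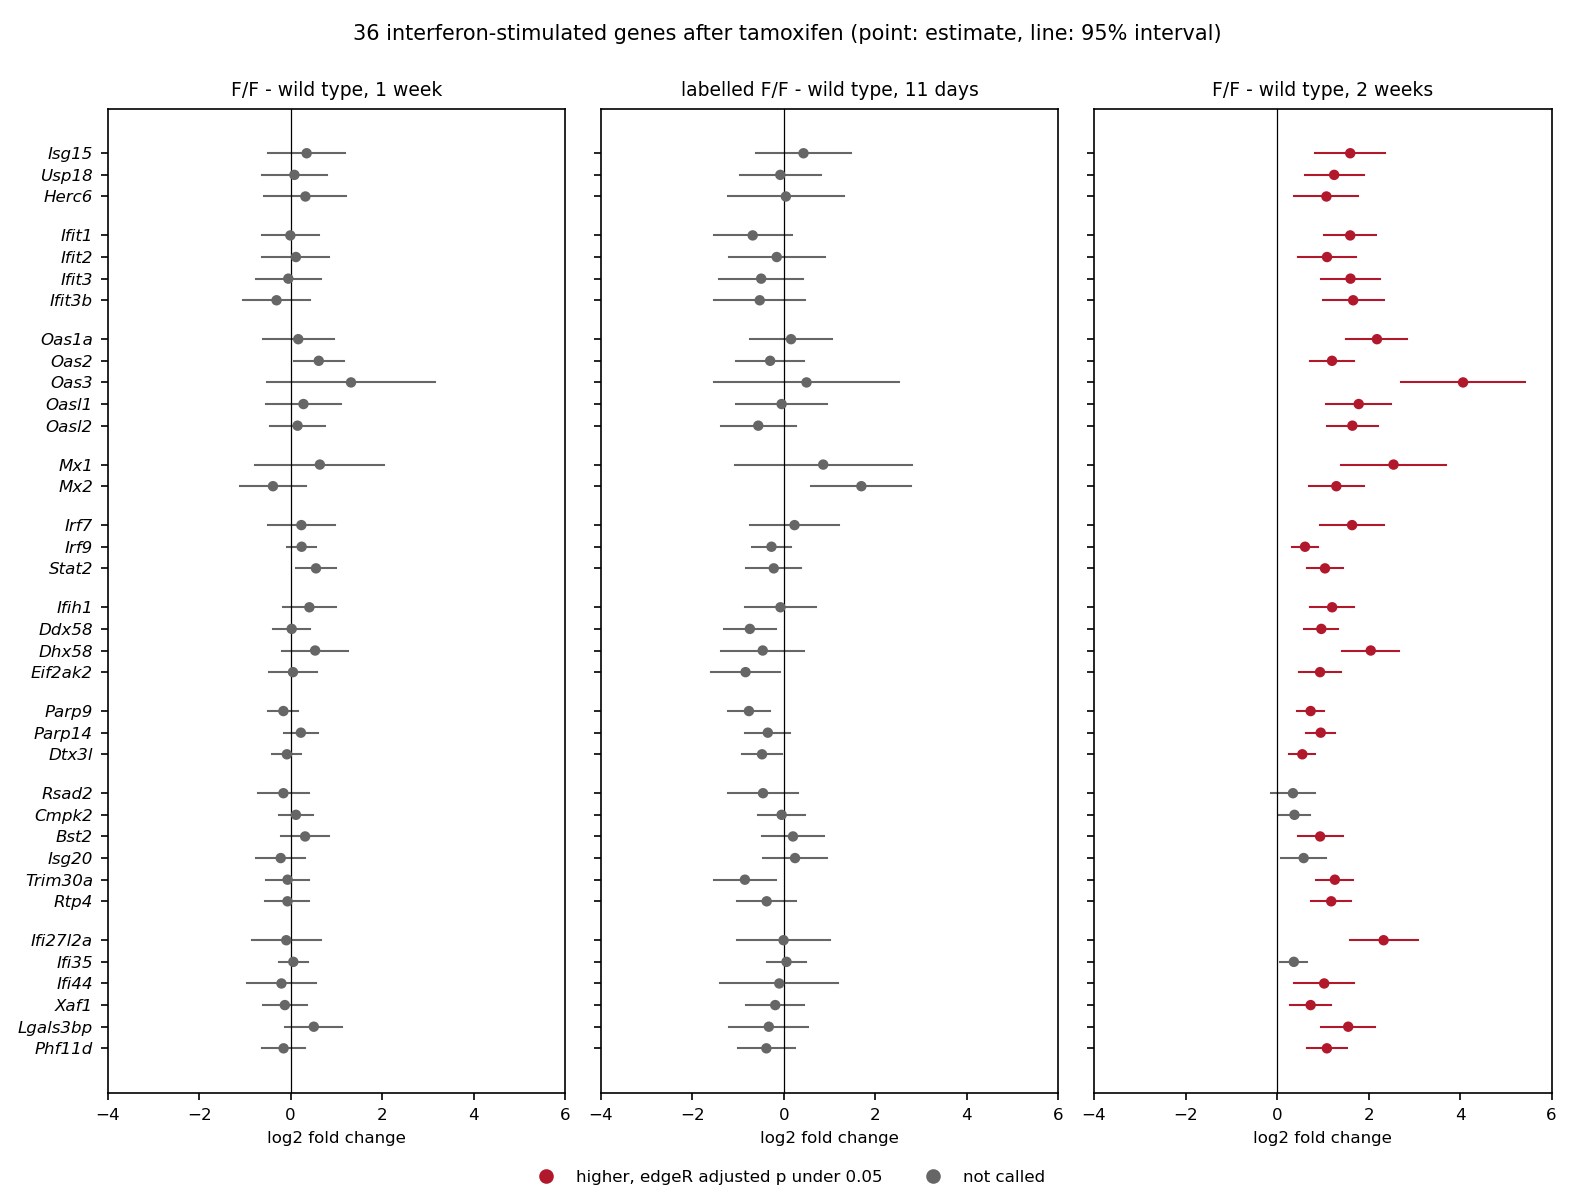
Log2 fold change of each of the 36 genes (x axis) with its 95% interval, F/F against wild type at 1 week, labelled F/F against wild type at 11 days and F/F against wild type at 2 weeks, with genes ordered by role and those called by edgeR in red. The values lie on both sides of 0 at 1 week and 11 days, and all 36 lie above 0 at 2 weeks, where 32 are called.

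The F/F libraries of 2 weeks were not alike. In F/F replicate 1, a male of sequencing pool KIUC033, the mean log2(CPM + 1) of the 36 genes was 3.20, while F/F replicates 2 to 5 stood at 4.24 to 4.52 and the 7 wild type libraries at 2.68 to 3.17. This library had the lowest Lmna of the 12, at 42.2 normalised CPM, and mitochondrially encoded genes took 28.9% of its counts (9.16 to 15.2% in F/F replicates 2 to 5). The part of these in its score was not tested. Without it 35 of 36 genes were called (5261 of all 15627 genes were) and the median was 1.43, and Rsad2 alone was not called (0.42, edgeR adjusted p = 0.265). Within pool KIUC033 the mean score differed by 0.765 between 2 F/F and 5 wild type libraries, and within pool KIUC035 by 1.34 between 3 and 2. The difference was 1.27 among females (3 and 2) and 0.846 among males (2 and 5). In 10 genes all 5 F/F libraries, replicate 1 included, lay above all 7 wild type libraries, a position held by 6.68% of all genes: Herc6, Ifit1, Ifit2, Mx2, Stat2, Ifih1, Eif2ak2, Parp9, Dtx3l and Trim30a.

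Among the genes of ISG15 conjugation, Isg15 stood at 5.95, 44.7, 47.7, 34.2 and 38.2 normalised CPM in F/F replicates 1 to 5, and at 4.74 to 13.1 with a median of 9.87 in wild type. Replicate 1 lay inside the wild type range and the other 4 at more than double its upper end. The log2 fold change was 1.60 ± 0.37 (SE, edgeR adjusted p = 0.00225). Usp18, the protease that removes Isg15 from proteins and restrains the receptor, rose by 1.25 ± 0.31, and Herc6, a ligase for Isg15 in mice, by 1.08 ± 0.34.

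The 4 IFIT genes, whose proteins bind viral RNA, rose by 1.09 to 1.66. Ifit3 was 9.65, 35.9, 24.7, 24.3 and 20.02 normalised CPM in F/F and 4.94 to 12.2 with a median of 9.64 in wild type hearts, and its copy Ifit3b 2.97, 9.31, 5.41, 6.97 and 6.41 against 1.46 to 3.23 with a median of 2.11. Replicate 1 lay within the wild type range for both copies. Ifit1 was 8.25, 24.9, 17.2, 19.5 and 17.8 against 4.46 to 8.17 with a median of 5.69, and its lowest F/F value was just above the highest wild type value. The log2 fold changes were 1.60 ± 0.31 for Ifit3, 1.66 ± 0.32 for Ifit3b and 1.60 ± 0.28 for Ifit1 (edgeR adjusted p = 0.000504, 0.000499 and 0.000161).

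The OAS genes make or resemble the enzymes that form 2-5A, the messenger that activates an RNA-cutting enzyme, and all 5 rose, by 1.2 to 4.06. Oas3 had the greatest log2 fold change of the 36 genes, 4.06 ± 0.65 (edgeR adjusted p = 8.28e-05), from a low base. It stood at 0.449, 4.76, 12.5, 4.09 and 5.19 normalised CPM in F/F hearts and at 0 to 0.527 with a median of 0.253 in wild type, 882 counts over 5 libraries against 35 over 7. Oasl2 was 13.1, 50.1, 50.5, 42.8 and 40.9 against 9.10 to 14.3 with a median of 12.5. Replicate 1 lay inside the wild type range for both genes, and the other 4 F/F libraries did not overlap with wild type. Oas1a rose by 2.18 ± 0.32 and Oasl1 by 1.78 ± 0.35.

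Mx1 and Mx2 rose by 2.54 ± 0.56 and 1.29 ± 0.30 (edgeR adjusted p = 0.00139 and 0.00195). Mx1 was 0.898, 4.60, 9.45, 5.47 and 4.47 normalised CPM in F/F and 0.414 to 1.32 with a median of 0.740 in wild type hearts. Mx2 was 2.81, 5.36, 6.28, 7.43 and 5.25 against 1.79 to 2.31 with a median of 1.86, and its groups did not overlap.

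Of the transcription factors, Irf7, which amplifies interferon production, was 15.7, 80.2, 102, 59.7 and 76.4 normalised CPM in F/F hearts and 11.6 to 28.6 with a median of 18.3 in wild type. Stat2 was 15.1, 25.8, 32.7, 23.6 and 24.8 against 8.44 to 12.8 with a median of 12.1. Replicate 1 was within the wild type range for Irf7 and above it for Stat2. The log2 fold changes were 1.64 ± 0.34 for Irf7, 1.05 ± 0.20 for Stat2 and 0.61 ± 0.14 for Irf9 (edgeR adjusted p = 0.000929, 0.000341 and 0.00227).

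The sensors of viral RNA rose as well. Dhx58 (LGP2), which regulates the other sensors of its family, was 2.52, 12.5, 19.1, 12.3 and 12.3 normalised CPM in F/F and 1.33 to 3.01 with a median of 2.60 in wild type hearts. Ddx58, the gene of RIG-I, was 10.9, 22.3, 26.2, 26.5 and 21.8 against 8.36 to 12.2 with a median of 9.78. For both, replicate 1 lay inside the wild type range. The log2 fold changes were 2.05 ± 0.30 for Dhx58, 0.97 ± 0.18 for Ddx58, 1.2 ± 0.24 for Ifih1 (MDA5) and 0.94 ± 0.22 for Eif2ak2 (PKR, a kinase that halts translation).

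Parp9, Dtx3l and Parp14, which act in ADP-ribosylation and ubiquitylation after interferon, rose by 0.73 ± 0.14, 0.55 ± 0.14 and 0.95 ± 0.16. Parp9 was 19.5, 30.8, 27.8, 28.03 and 25.5 normalised CPM in F/F and 12.2 to 17.99 with a median of 15.9 in wild type hearts. Replicate 1 was above every wild type library here. Parp14 was 18.1, 22.6, 21.9, 15.8 and 19.8 against 6.86 to 16.3, with an overlap of 1 library.

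Among the other antiviral effectors the response split. Bst2 (tetherin), which holds budding virus at the cell surface, was 23.4, 96.5, 106, 78.2 and 102 normalised CPM in F/F and 24.0 to 42.5 with a median of 38.4 in wild type hearts, and rose by 0.94 ± 0.24. Trim30a was 13.4, 19.2, 26.7, 18.7 and 17.1 against 6.69 to 10.1, and rose by 1.26 ± 0.20 (edgeR adjusted p = 5.93e-05). Rsad2 (viperin), an enzyme that makes a chain-terminating nucleotide, was 12.6, 11.6, 14.1, 13.4 and 12 against 6.53 to 14.6 with a median of 11.1, so that all 5 F/F libraries, replicate 1 included, lay inside the wild type range. Its log2 fold change was 0.35 (95% interval -0.14 to 0.84, edgeR adjusted p = 0.286). Cmpk2, a mitochondrial nucleotide kinase whose start site lies 12763 bases from that of Rsad2 on chromosome 12, was 8.64, 11.2, 11.5, 12.3 and 9.64 against 6.66 to 10.4. Its groups overlapped and its log2 fold change was 0.38 (0.04 to 0.72, edgeR adjusted p = 0.0841). Isg20, an exonuclease, was 4.21, 9.06, 11.6, 10.4 and 9.32 against 3.40 to 6.37, with 4 F/F libraries above wild type and replicate 1 inside it (0.58, 0.08 to 1.08, edgeR adjusted p = 0.0729). Cmpk2, Isg20 and Ifi35 passed the test when replicate 1 was left out (edgeR adjusted p = 0.0206, 0.00616 and 0.00984).

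Of the remaining interferon-induced genes, Ifi27l2a was 33.2, 305, 359, 193 and 223 normalised CPM in F/F and 23.2 to 61.6 with a median of 34.6 in wild type hearts. Replicate 1 lay inside the wild type range and the other 4 at several times its upper end. It rose by 2.33 ± 0.36, and Lgals3bp, a secreted glycoprotein, by 1.55 ± 0.29 (edgeR adjusted p = 5.5e-05 and 0.000294). Ifi35 was 25.7, 42.8, 42.6, 40.0 and 42.9 against 22.2 to 31.3 with a median of 28.7 (0.37, 95% interval 0.07 to 0.66, edgeR adjusted p = 0.0553). Per length, in the deposited TPM, Ifi27l2a was the most abundant of the 36 genes in both arms (1087 ± 670 in F/F and 134 ± 53.4 in wild type, SD), followed by Bst2 (229 ± 110 and 73.6 ± 19.8). Oas3 was the least abundant in wild type (0.0872 ± 0.0589) and Herc6 in F/F hearts (0.982 ± 0.210).

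**Figure D2:**
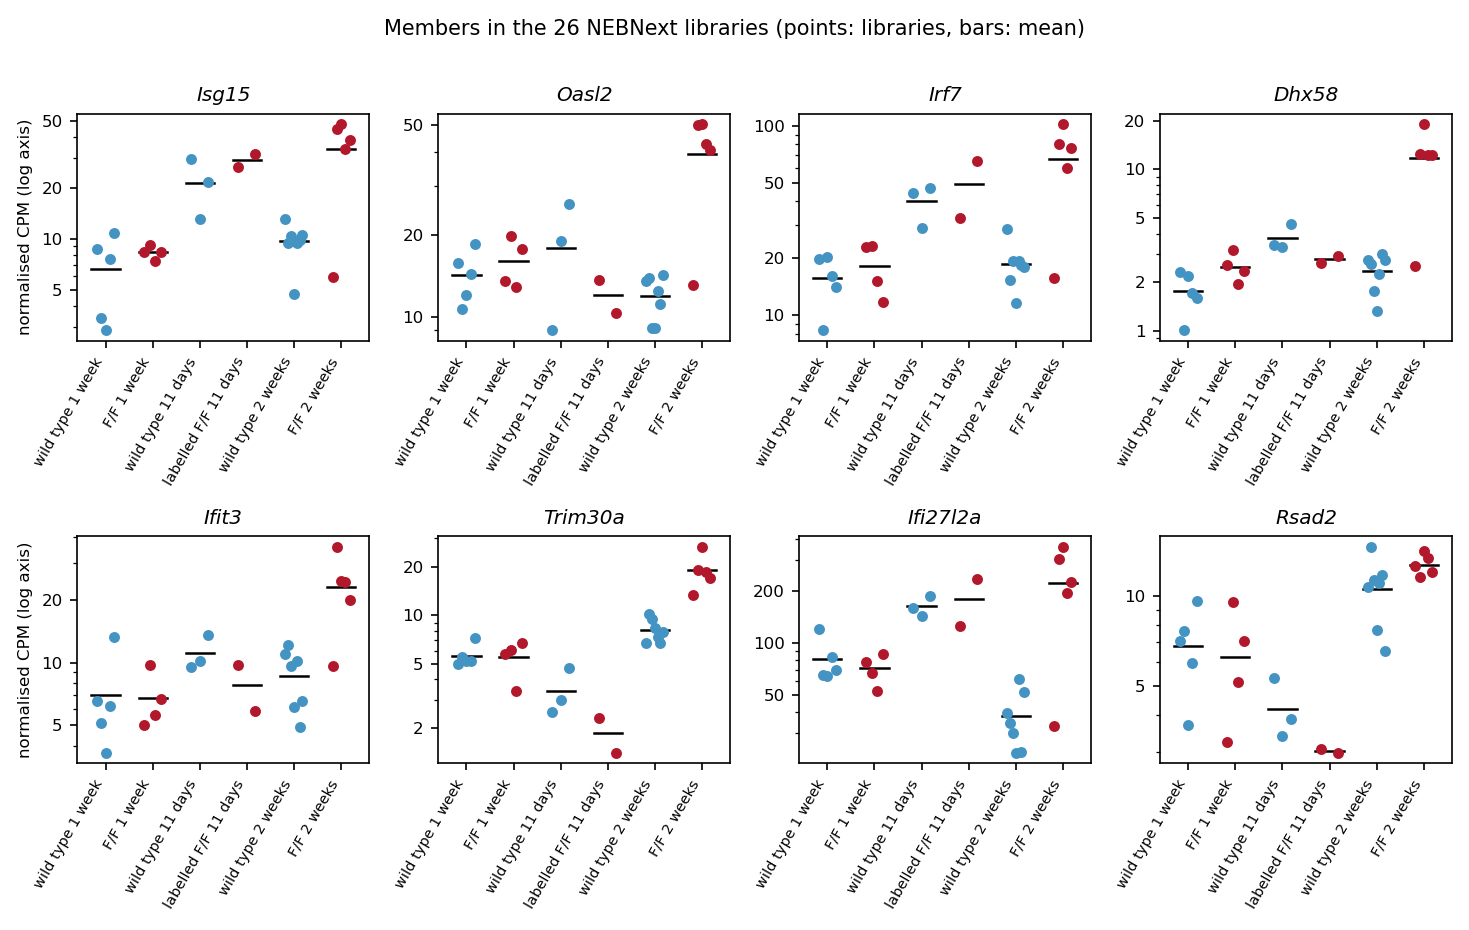
Normalised CPM on a log axis of 8 of the genes in each of the 26 NEBNext libraries, wild type in blue and F/F in red at 1 week, 11 days and 2 weeks, with bars at group means. At 2 weeks at least 4 F/F libraries lie above all wild type libraries for 7 of the genes, and for Trim30a all 5 do. Replicate 1 is the lowest F/F library for these 7 genes, and for Rsad2 the 5 F/F libraries lie inside the wild type range.

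The F/F effect at 2 weeks exceeded that at 1 week for 15 of the 36 genes when the difference itself was tested in edgeR, and fell short of it for none (6.52% and 5.88% of all genes). All 36 differences were positive (52.5% of all genes), with a median of 1.11 on the log2 scale against 0.04 over all genes. The 15 were Ifit1, Ifit3, Ifit3b, Oas1a, Oasl2, Mx2, Ddx58, Dhx58, Parp9, Parp14, Dtx3l, Trim30a, Rtp4, Ifi27l2a and Phf11d, with differences from 0.63 for Dtx3l to 2.42 for Ifi27l2a. The count depended on single libraries, and so did the calls over all 15627 genes (1019 higher and 919 lower with every library). The count was 27 without F/F replicate 1 of 2 weeks (2966 genes called in all) and 5 without F/F replicate 2 of 2 weeks (1130). It was 9 without F/F replicate 3 of 1 week (1209 in all) and 9 without wild type replicate 5 of 1 week (1625).

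Promoters with and without the core were counted apart at 2 weeks. Of the 13 genes with 2 GAAA boxes 12 rose, with a median of 1.26. Of the 14 without them 11 rose, with a median of 1.05, and the 9 genes whose promoters were missing from RefSeq's list all rose, with a median of 1.25. The difference between these sets was not tested. Rsad2, printed above with its core, is the 1 of the 13 that was not called.

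Other genes of the pathway were read from a list of 41. Of its 10 interferon genes none had enough counts to be tested. Ifnb1 had 7 counts in 4 of the 26 NEBNext libraries, 6 of them in F/F hearts of 2 weeks, and 2 counts in 1 of the 20 QuantSeq libraries. Ifng had 9 and 16 counts, in 6 of 26 and 11 of 20 libraries. Ifna1, Ifna2, Ifna4, Ifna5, Ifnk, Ifne, Ifnl2 and Ifnl3 had 0 counts in all 46. Transcripts of the ligands were thus at or near the limit of detection at this depth.

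Of the 31 other genes of that list, 17 rose and 3 fell at 2 weeks (edgeR). Both chains of the type I receptor rose slightly, Ifnar1 by 0.48 ± 0.14 and Ifnar2 by 0.33 ± 0.12, while Ifngr2 of the type II receptor fell by 0.49 ± 0.11 and Il10rb of the type III receptor by 0.66 ± 0.14 on the log2 scale. Of the kinases and transcription factors, Jak2 rose by 0.53 ± 0.18, Stat3 by 0.48 ± 0.11, Irf5 by 1.39 ± 0.25 and Irf8 by 1.13 ± 0.28. In nucleic acid sensing 7 of 11 genes rose: Zbp1, a sensor of Z-form nucleic acid, by 3.60 ± 0.52, Tlr9 by 2.06 ± 0.48, Ikbke by 1.88 ± 0.39, Sting1 by 1.65 ± 0.26, Cgas by 1.48 ± 0.30, Tlr7 by 1.40 ± 0.24 and Myd88 by 1.02 ± 0.18. Mavs, the adaptor of Ddx58 and Ifih1, fell by 0.69 ± 0.14 on the log2 scale. Of 4 restraints on the pathway, Socs3 (2.95 ± 0.41), Ptpn6 (1.84 ± 0.26) and Socs1 (1.47 ± 0.35) rose and Ptpn11 did not.

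Immune cell markers moved with these genes at 2 weeks. All 15 macrophage markers rose in F/F hearts, with a median log2 fold change of 2.03. The F/F libraries had summed levels of 1015 to 4553 normalised CPM, all above the 568.1 to 855 of wild type. Replicate 1 had the lowest sum of the 5 F/F libraries, 1015, as it had the lowest score of the 36 genes. None of the 15 was at 0 in any library. Of 7 T and NK cell markers 4 rose. Of 4 neutrophil markers 3 were tested and 1 rose, and of 3 B cell markers 1 was tested and did not pass. Of 5 markers of plasmacytoid dendritic cells 4 were tested. Klk1 rose and Cox6a2, also a muscle gene, fell, while Siglech, the defining one, stood at 0.224 to 0.844 against 0.0940 to 0.276 and did not pass (edgeR adjusted p = 0.240). Of the cardiomyocyte markers 4 of 6 fell, of 4 endothelial markers 2 fell, and of 4 fibroblast markers 3 rose. Of 4 atrial markers Nppa rose (1.64 ± 0.49) and Sln, Myl7 and Myl4 did not pass, with values of -0.77 to -0.66. The atrial sum includes Nppa, the only one of the 4 with a positive value. It was 1926, 2380, 3224 and 1806 normalised CPM in F/F replicates 2 to 5, above the wild type range of 320 to 1291. In replicate 1 it was 426, inside that range. The part of any of these cell types in the change of the interferon-stimulated genes was not tested. At 11 days the macrophage sum was 1359 and 1629 in the labelled F/F libraries, inside the wild type range of 1100 to 1899, while the score of the 36 genes was 3.0 in both of them, just below the wild type range of 3.03 to 3.33. The atrial sum was 476 and 491 in the labelled F/F libraries and 775, 2214 and 3077 in wild type, without overlap, with a median log2 fold change of -5.32 over the 4 markers and none called (edgeR, all 4 with an unadjusted p under 0.05). Its part in the values of the 36 genes at 11 days was not tested.

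**Figure D3:**
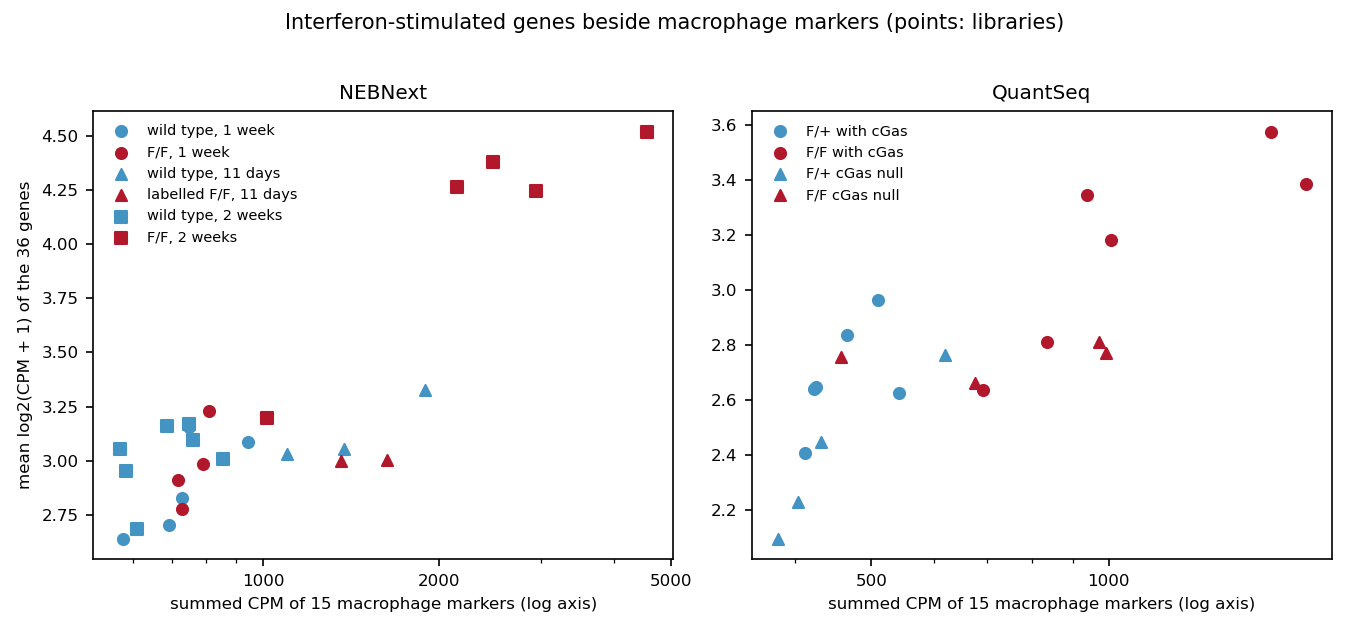
Mean log2(CPM + 1) of the 36 genes (y axis) against the summed normalised CPM of 15 macrophage markers (x axis, log), 1 point per library, NEBNext on the left and QuantSeq on the right. In NEBNext 4 F/F libraries of 2 weeks lie apart at the upper right, with scores of 4.24 to 4.52 and sums of 2149 to 4553, and in QuantSeq the 4 highest scores are those of F/F libraries with cGas.

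In the cGas cross, all 36 fitted values were higher in F/F than in F/+ hearts with cGas (48.6% of all genes were), by a median of 0.62 on the log2 scale (fold 1.54), against -0.01 over all genes. Of these, 2 passed the test in edgeR, Ifi27l2a and Lgals3bp (3.74% of all genes were called higher and 0.891% lower), and 21 had an unadjusted p under 0.05 (18.9% of all genes). For none of the 36 did the 6 F/F libraries lie entirely above the 6 F/+ libraries, a position held by 2.39% of all genes. The number called depended on the test and on single libraries: DESeq2 called 8 (767 genes higher and 287 lower over all) and limma 9 (678 and 26). Over the libraries left out in edgeR, 190 to 1169 genes were called in all. In edgeR the count was 12 without F/F replicate 4, 8 without F/+ replicate 4, 5 without F/+ replicate 2 and 4 without F/F replicate 6. It was 1 without F/F replicate 2 or 5 or F/+ replicate 5, and 0 without F/F replicate 1 or 3 or F/+ replicate 1 or 3. With libraries scaled by their totals alone the calls over all genes were 551 higher and 19 lower (554 and 132 otherwise), with a median of 0.15, and the median of the 36 genes was 0.75 with 6 called. F/F replicate 4 was the lowest F/F library, with a mean log2(CPM + 1) of 2.64, where the other 5 had 2.81 to 3.58 and the F/+ libraries 2.41 to 2.96.

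Ifi27l2a was 91.3 to 360 normalised CPM in F/F (median 225) and 62.3 to 117 in F/+ hearts (median 84.8), with F/F replicate 4 alone inside the F/+ range, and rose by 1.34 ± 0.33 (edgeR adjusted p = 0.0207). Lgals3bp was 12.2 to 34.2 (median 24.7) against 11.7 to 16.1 (median 13.6), 0.82 ± 0.24 (edgeR adjusted p = 0.0464). Again 5 of 6 F/F libraries lay above F/+. Isg15 was 11.7 to 33.3 (median 23.0) against 8.61 to 22.4 (median 10.6), 0.75 ± 0.30 (edgeR adjusted p = 0.172). Irf7 was 5.60 to 20.1 (median 14.6) against 5.06 to 11.3 (median 7.40), 0.91 ± 0.28 (edgeR adjusted p = 0.0688). The IFIT genes stood at 0.72 to 1.22, the OAS genes at 0.70 to 1.62 and the Parp9 group at 0.12 to 0.17, none of them called in edgeR. Rsad2 was 11.7 to 18.3 (median 15.4) against 10.4 to 16.6 (median 11.7), 0.35 ± 0.14 (edgeR adjusted p = 0.159).

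**Figure D4:**
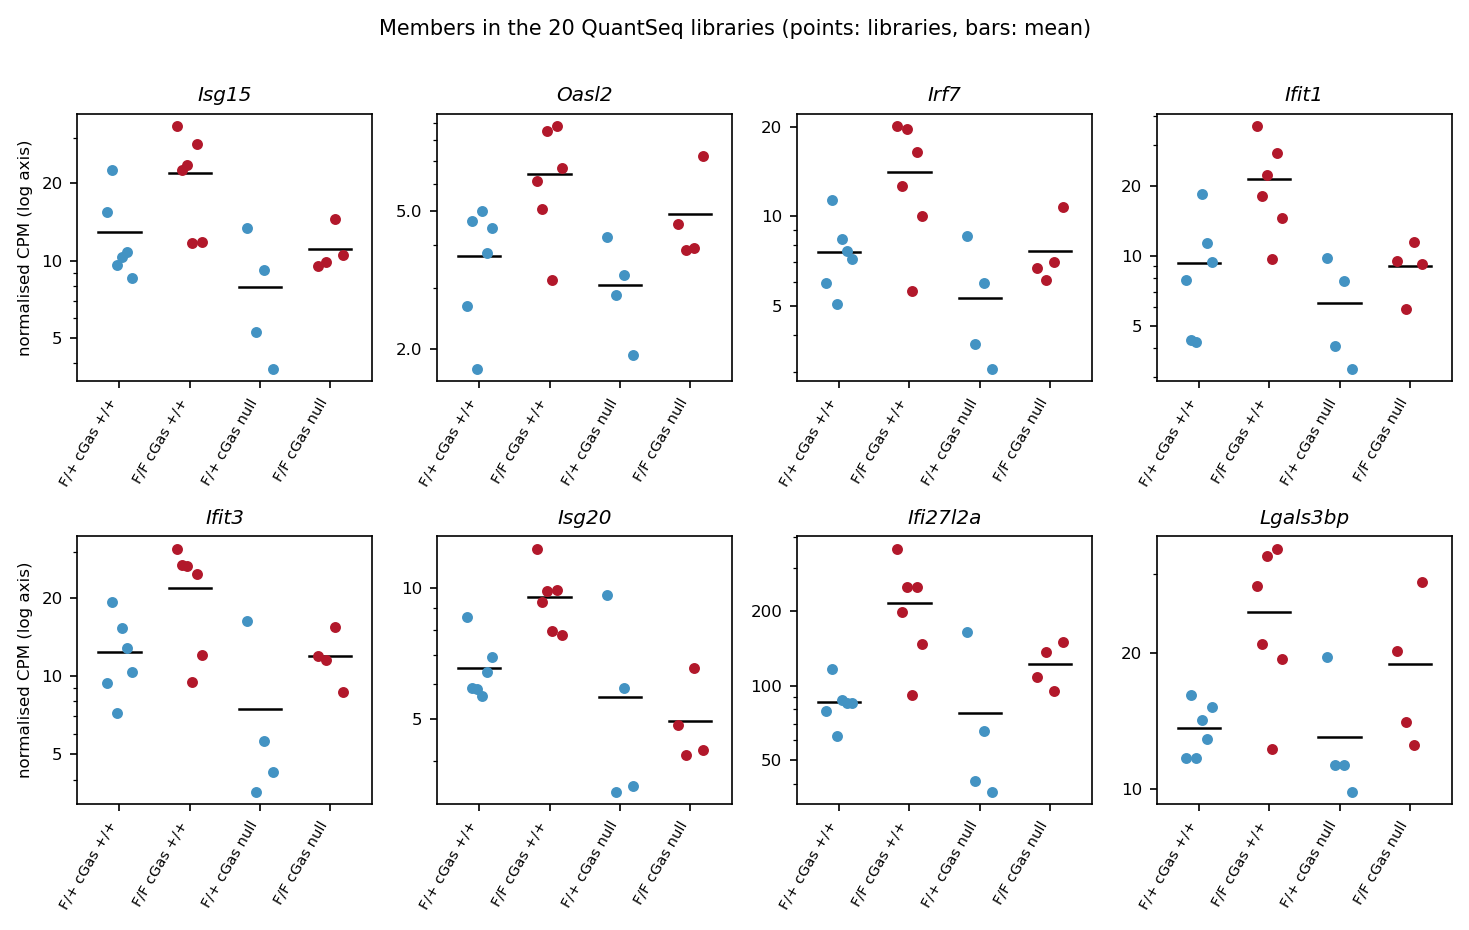
Normalised CPM on a log axis of 8 of the genes in each of the 20 QuantSeq libraries, F/+ in blue and F/F in red, with cGas and cGas null, with bars at group means. F/F libraries with cGas have the highest mean of the 4 groups for each of the 8 genes, and the points of the groups overlap except for Isg20 between F/F with cGas and F/F cGas null.

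Without cGas, none of the 36 genes passed between F/F and F/+ hearts in edgeR (0.527% of all genes did), while DESeq2 called 1 and limma 0, and 9 had an unadjusted p under 0.05 (10.3% of all genes). The log2 fold change was positive for 33 (47.6% of all genes) and the median was 0.49 (fold 1.41), against -0.02 over all genes. The median was 0.79 without F/+ cGas null replicate 1 and 0.32 without F/+ cGas null replicate 4. With library totals alone it was 0.72, against 0.16 over all genes, with 36 positive. Isg15 was 9.51, 9.89, 14.5 and 10.5 normalised CPM in F/F cGas null and 13.4, 5.31, 9.18 and 3.80 in F/+ cGas null hearts (0.51, 95% interval -0.30 to 1.33, edgeR adjusted p = 0.748). In 5 genes all 4 F/F libraries lay above all 4 F/+ libraries, a position held by 3.21% of all genes: Ifit2, Oas3, Mx1, Parp14 and Bst2. Mx1 was 0.599, 0.394, 0.741 and 0.671 against 0.137, 0.115, 0.215 and 0.147 (2.11, 95% interval 0.83 to 3.39, edgeR adjusted p = 0.126). Oas3 had 37 counts in F/F and 1 count in F/+ cGas null libraries, a ratio per total count of 36.03 whose 95% counting interval, 6.08 to 1461, covers counting error only. Ifi27l2a was 108, 137, 95.5 and 151 against 166, 41.1, 65.7 and 37.1, so that the F/+ library of replicate 1 exceeded every F/F library.

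Whether the F/F effect depended on cGas was tested as the difference of the effects. No gene of the 36 passed (edgeR, DESeq2 and limma, 0 each, and 0% of all genes in edgeR). In edgeR 1, Oas3, had an unadjusted p under 0.05 (1.45% of all genes). The difference of Oas3 was positive, 2.91 on the log2 scale, and rests on an arm, F/+ cGas null, with 1 count of Oas3 over its 4 libraries. The median of the differences, without cGas minus with it, was -0.14 on the log2 scale, with 24 negative (51% of all genes). With a library left out the median ran from -0.31 (without F/+ cGas null replicate 4) to 0.06 (without F/+ cGas null replicate 1). It was 0.02 without F/+ replicate 3 with cGas, and beyond 1.5 times its size also without F/+ cGas null replicate 2 (-0.24) and F/F replicate 6 with cGas (-0.30), and nearer to 0 by as much without F/+ replicate 1 (-0.09), F/F replicate 1 (-0.08) and F/F replicate 3 (-0.09) with cGas. The intervals were wide. That of Isg15 ran from -1.30 to 0.83, that of Ifit1 from -1.97 to 0.54 and that of Ifi27l2a from -1.79 to 0.45, so that for these 3 genes neither a loss of the whole F/F effect seen with cGas nor its full persistence was outside the interval.

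Within F/F hearts all 36 genes had lower fitted levels without cGas (49.7% of all genes), with a median of -0.47 on the log2 scale (a fold of 0.723), against 0.0022 over all genes. With library totals alone and in limma 1 of the 36 values was positive. None passed in edgeR, DESeq2 or limma, and 0% of all genes did in edgeR, whereas 16 of the 36 had an unadjusted p under 0.05, against 5.74% of all genes. With no filter on low counts edgeR called 78 of 29893 genes lower and 15 higher, among them 8 of the 36, all lower: Isg15, Usp18, Ifit1, Ifit3, Ifit3b, Irf7, Isg20 and Ifi27l2a. Isg20 was 4.83, 4.12, 6.55 and 4.23 normalised CPM in cGas null and 7.78 to 12.3 (median 9.56) in cGas +/+ hearts, the only gene of the 36 without overlap (0.412% of all genes), with a log2 fold change of -0.94 (95% interval -1.43 to -0.45, edgeR adjusted p = 0.850). Ifit1 was 9.47, 5.88, 11.5 and 9.24 against 9.64 to 36.1 (median 20.2), -1.25 (-2.06 to -0.43), with 3 of 4 cGas null libraries below every cGas +/+ library. Isg15 was 9.51, 9.89, 14.5 and 10.5 against 11.7 to 33.3, -0.97 (-1.68 to -0.27). Parp14 (-0.03), Mx2 (-0.07), Irf9 (-0.11) and Ifi35 (-0.13) lay nearest to 0.

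In F/+ hearts, which carry 1 allele that is not floxed, all 36 fitted values without cGas were negative as well (47.6% of all genes), with a median of -0.37 against 0.02 over all genes. None passed in edgeR, DESeq2 or limma (0% of all genes in edgeR) and 3 had an unadjusted p under 0.05 (4.16% of all genes). No gene of the 36 had all cGas null libraries below all cGas +/+ libraries (0.466% of all genes). The F/+ cGas null libraries were all male and the F/+ cGas +/+ libraries 2 males and 4 females. Among males alone the mean score was 2.38 in 4 cGas null and 2.53 in 2 cGas +/+ libraries, a difference of -0.14, against -0.30 over both sexes, and when these 2 groups were fitted alone 34 of the 36 genes were tested, with a median of -0.15 and 13 positive values. Without F/+ cGas null replicate 1 the median was -0.60. Among F/F hearts the difference of the score was -0.40 in females (2 and 3) and -0.41 in males (2 and 3).

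Macrophage markers were read here too. With cGas 13 of 15 were higher in F/F than in F/+ hearts (edgeR), with a summed level of 693 to 1777 against 412 to 541 normalised CPM, without overlap. Without cGas 3 of 15 were higher, with sums of 458 to 992 against 381 to 620. The median log2 fold change of the 15 was 1.16 with cGas (6 F/F and 6 F/+ libraries) and 0.87 without (4 and 4). When the difference of these F/F effects was tested in edgeR, none of the 15 passed and their median was -0.10. Between cGas null and cGas +/+ within F/F none of the 15 passed, with a median log2 fold change of -0.53, and the 36 genes had a median of -0.47. None of the 4 atrial markers passed in the cross (edgeR, 0 with an unadjusted p under 0.05), where their median log2 fold change, F/F against F/+, was 2.33 with cGas and -1.37 without. The part of these cells in the levels of the interferon-stimulated genes was not tested.

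**Figure D5:**
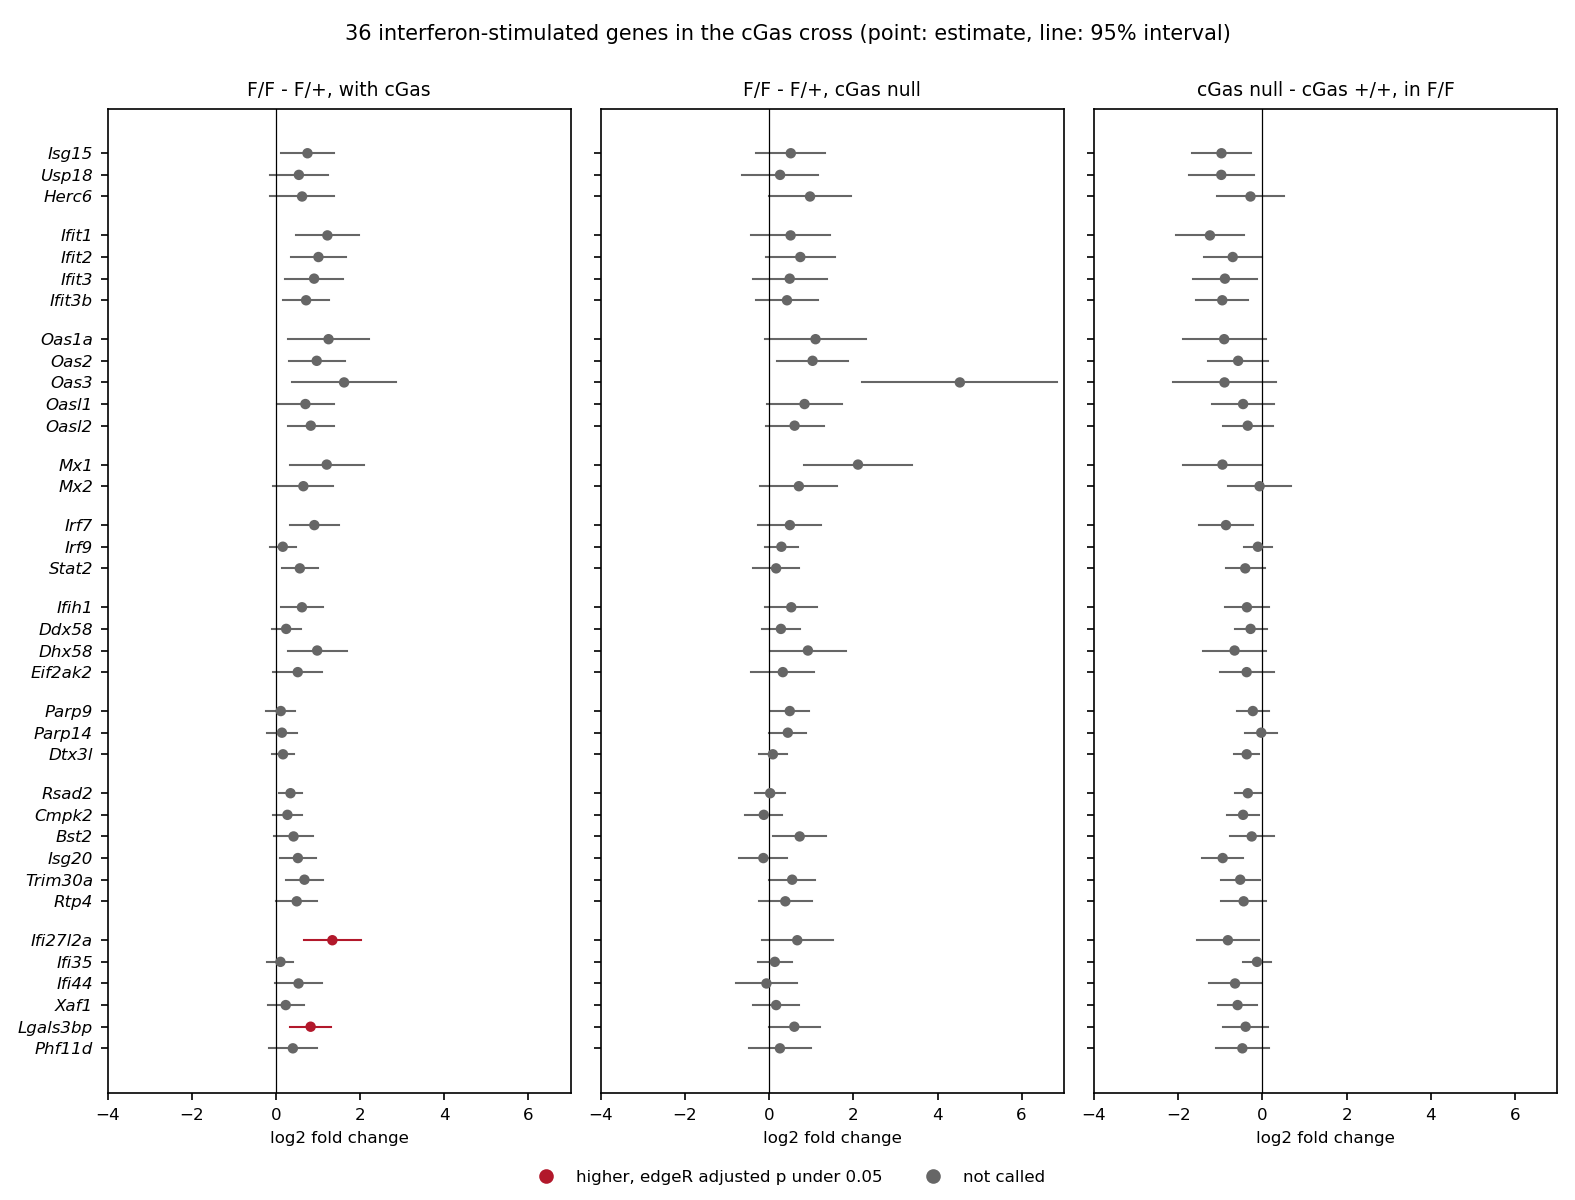
Log2 fold change of each of the 36 genes (x axis) with its 95% interval in the QuantSeq libraries: F/F against F/+ with cGas, F/F against F/+ in cGas null hearts, and cGas null against cGas +/+ within F/F. Ifi27l2a and Lgals3bp, in red, are the 2 genes called, all 36 values lie above 0 in the left panel and below 0 in the right panel, and most intervals of the middle panel include 0.

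Set side by side, the F/F effects of the 2 kits, which share no library but differ in their controls (wild type or F/+), ranked the 36 genes alike. Pearson's r across the 36 genes was 0.869 and Spearman's rho 0.875, and the effect at 2 weeks in the time course was the greater for 36 of 36. Genes are not independent replicates, and low counts in both kits belong to the same genes, such as Oas3 and Mx1. Between F/F effects with and without cGas r was 0.673 and rho 0.720, and the effect was greater with cGas for 24 of 36. Between the time course at 2 weeks and the cGas null effects r was 0.853 and rho 0.731, and the time course effect was greater for 35 of 36.

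The rest of the pathway list was read in the cross as well. With cGas 6 of 30 genes tested rose and none fell: Zbp1 (1.77 ± 0.40), Sting1 (0.90 ± 0.18), Tlr7 (1.06 ± 0.22), Irf5 (0.86 ± 0.23), Socs3 (2.12 ± 0.35) and Ptpn6 (1.11 ± 0.21). Without cGas 3 of 30 rose, Irf5 (1.55 ± 0.29), Socs3 (2.10 ± 0.41) and Ptpn6 (1.23 ± 0.26). Zbp1 was 3.28 to 16.4 normalised CPM in F/F with cGas (median 7.61), 1.98 to 5.40 in F/F cGas null (median 3.15), 1.23 to 3.03 in F/+ with cGas and 0.295 to 2.93 in F/+ cGas null hearts. Within F/F its log2 fold change without cGas was -1.27 ± 0.43 (edgeR adjusted p = 0.850).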

How the data were processed

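RNA of perfused mouse hearts was sequenced in 26 NEBNext and 20 QuantSeq libraries, per the labels' protocols. Per the submitters' processing notes the authors used mm39 and STAR 2.7.9, and they deposited raw counts per gene. The counter, its annotation and strand setting were not given in the sources used here. A second deposited table holds TPM for NEBNext, per the file headers, and its 20 QuantSeq columns equal CPM of the deposited counts within 0.01. Each library has a number of its own in its title and most groups hold both sexes, but no label says outright that every library is a different mouse. Where it is not, p-values reflect only the spread among libraries, which may be technical.

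The test was edgeR's quasi-likelihood test on the deposited counts (edgeR 4.0.16 under R 4.3.3; TMM, filterByExpr with a minimum count of 10 and a minimum total of 15, estimateDisp, glmQLFit, glmQLFTest) over all 15627 NEBNext or 14812 QuantSeq genes, each kit fitted as a whole, with Benjamini-Hochberg adjustment over all genes and a threshold of 0.05. All 36 genes passed the filter in both kits. Covariates were sex and, within 2 weeks, the pool. Values after ± are standard errors of log2 fold changes unless named SD. The score is the mean log2(CPM + 1), a pseudocount of 1, given as a description. DESeq2 1.42.0 and limma 3.58.1 (limma-trend on log2 of the deposited values + 1) were alternatives, with other scalings, filters and each library left out. The fit was tested on simulated data. The members and the lists of pathway genes and markers were chosen with earlier results of these data known. Per-library values follow a rule: in each role the gene of highest level and that of greatest change at 2 weeks, with Isg15, Irf7, Stat2 and the genes not called. Ifit1, Lgals3bp and Zbp1 were added after their values were seen. 1 gene of the pathway list is counted but not reported here.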

Additional observations from a re-analysis of the deposited data

Results flagged for a closer look

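In 168 sets of values, each over the 4 to 7 libraries of a group, 10 held a library that stood apart from the rest of its group, and chance alone gives about 1 in 20. In F/F hearts of 2 weeks replicate 1 stood apart in the mean log2(CPM + 1) of the 36 genes (3.20), in Oasl2 (13.1 normalised CPM) and in Ifi35 (25.7), each time as the lowest library. Among wild type hearts of 1 week, replicate 1 was high in Oas3 (0.443) and replicate 5 in Trim30a (7.22). In F/+ hearts with cGas, replicate 4 was high in Oas3 (0.454), Stat2 (5.49) and Rsad2 (16.6). In F/+ cGas null hearts, replicate 1 was high in Ifit3 (16.3) and the only library with a count of Oas3 (0.0457).

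The F/F effect differed between 1 and 2 weeks, by edgeR's test of the difference, in 15 genes. The difference on the log2 scale, 2 weeks minus 1 week, was 1.60 for Ifit1, 1.65 for Ifit3, 1.97 for Ifit3b, 2.02 for Oas1a, 1.49 for Oasl2 and 1.68 for Mx2. It was 0.94 for Ddx58, 1.51 for Dhx58, 0.89 for Parp9, 0.73 for Parp14 and 0.63 for Dtx3l. For Trim30a it was 1.33, for Rtp4 1.25, for Ifi27l2a 2.42 and for Phf11d 1.24.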

How the results depend on the processing

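At 2 weeks 32 to 36 of the 36 genes were called under every alternative setting and 27 to 35 with a library left out. Over the libraries left out, 3046 to 5261 of all 15627 genes were called. In all of these fits together 26 genes were called each time, and Isg15, Usp18, Herc6, Bst2, Ifi44 and Xaf1 lost the call in some. At 1 week, at 11 days, in the difference of the F/F effects with and without cGas, and for cGas null in F/+ hearts the count was 0 under every setting and leave-out. With only the libraries compared, 34 of the 36 genes were tested at 1 week, at 11 days and for cGas null in F/+ hearts. The count for 2 weeks minus 1 week, 15, became 23 without the filter on low counts. There 1328 of all 31988 genes were called higher and 891 lower. With a library left out the count ran from 5 to 27, with 1130 to 2966 of all 15627 genes called. For F/F against F/+ with cGas, 2 became 4 without covariates (671 higher and 168 lower over all genes). The count was 5 with only the libraries compared (35 of the 36 tested, 548 and 165 over 13588 genes). It was 6 with library totals alone (551 and 19) and 8 with DESeq2 (767 and 287). With limma it was 9 (678 and 26), without the filter 16 (929 and 254 of 29893), and with a library left out 0 to 12. Without cGas, 0 became 1 with DESeq2 (229 genes higher and 22 lower over all). It was also 1 with only the libraries compared (34 of the 36 tested, 237 and 9 over 13891 genes) and with library totals alone (139 and 0). The count was 2 without the filter (459 and 56 of 29893), and ran from 0 to 1 with a library left out (7 to 175 genes called in all). For cGas null in F/F, 0 became 8 without the filter (15 higher and 78 lower of 29893 genes), and was 0 with each library left out. The cause of these shifts was not tested. No paired analysis was possible because the labels number no replicates across groups. Oas3, Mx1 and Oas1a in QuantSeq rest on few counts per library, which limits their precision. The same holds for Dhx58, Oasl1, Mx2, Oas2 and Herc6, with means of 0.499 to 0.643 normalised CPM in F/+ cGas null hearts.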
